A study of Mus musculus with 18 samples.

Results

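The genes described are the subunits, assembly factors and activators of the proteasome, with the inducible members of the immunoproteasome among them. They were chosen by symbol, as protein-coding genes whose name begins with Psma to Psmg and a number, with a mean of at least 5 CPM in at least 1 group, where CPM is the gene's count scaled to the library's total. A total of 50 protein-coding genes of the 55536 gene IDs in the files carried such a name, and 47 of them met the CPM limit. All 47 were above that limit in every group. Outside it were Psma8, a testis subunit, with a highest group mean of 2.28 CPM, Psmc3ip, a meiosis factor that shares only the letters, with 3.56 CPM, and Psmb11, the thymus catalytic subunit, with 4.44 CPM. The lowest member inside it was Psmg3, with a highest group mean of 15.1 CPM. By role they were 7 alpha ring genes, 3 constitutive catalytic and 4 non-catalytic beta genes, the 5 inducible genes, 6 ATPases and 11 other subunits of the regulatory particle, 7 assembly chaperones, 3 further activators and inhibitors, and Psme2b, a copy of Psme2. Counts of a member in a library ran from 101, for the assembly chaperone Psmg2, to 19031.

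The proteasome is the protease that degrades ubiquitin-tagged proteins in the cytosol and nucleus. Its core particle stacks rings of alpha subunits (Psma genes), which gate the channel, around rings of beta subunits (Psmb genes), of which Psmb6, Psmb7 and Psmb5 carry the catalytic sites, and a regulatory particle of ATPases (Psmc) and non-ATPase subunits (Psmd) recognises and unfolds the substrate. Blood cells, and most cells exposed to interferon, make the immunoproteasome, in which Psmb9, Psmb10 and Psmb8 take the places of Psmb6, Psmb7 and Psmb5 and change the peptides released for MHC class I presentation; Psme1 and Psme2 form the PA28 activator, which is induced with them.

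Bone marrow from BALB/c mice was cultured for 4 days in RPMI with 40 ng/mL of the granulocyte and macrophage growth factor GM-CSF, and its poly(A) RNA was sequenced. The Cysltr1-/- and WT marrow, the first described as deficient in the type 1 cysteinyl leukotriene receptor, each received GM-CSF with 50% (v/v) conditioned medium of EMT6 cells, GM-CSF with IL-6 at 40 ng/mL, or GM-CSF alone. EMT6 is a mouse mammary carcinoma line, and its medium had been collected after 24 h. Each of the 6 groups held 3 libraries, and each library came from marrow pooled from 3 mice. The labels do not say whether the pools of a group were cultured apart, so p-values measure only the spread between these libraries.

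The libraries held 9.58 M to 31.99 M gene counts, with the lowest totals in EMT6 medium. Reads outside annotated features made up 50.2% and 36.2% on average in EMT6 medium libraries of Cysltr1-/- and WT marrow, 19.5% and 14.5% with IL-6, and 17.6% and 14.2% with GM-CSF alone. Cysltr1 itself averaged 77.0 ± 1.7 CPM in Cysltr1-/- cultures and 60.5 ± 2.6 CPM in WT cultures under GM-CSF alone (SD, n = 3 each), so its transcript does not check the allele, and the genotypes below are those of the labels. In EMT6 medium it averaged 7.33 ± 1.57 CPM in Cysltr1-/- and 4.08 ± 0.15 CPM in WT cultures. The cultures were mixtures: markers of neutrophils, monocytes, dendritic cells, B cells and mast cells or eosinophils were all present, and their summed levels differed between the groups. Bulk RNA of this kind cannot tell fewer cells of a type from less RNA per cell, which holds for every result below.

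The 5 inducible genes lie in 3 places of build mm10, by the GENCODE M21 annotation. Psmb8 (chr17:34197721-34201454, plus strand) and Psmb9 (chr17:34181987-34187764, minus strand) lie in the MHC class II region, Psmb10 on chr8:105935735-105938444 (minus strand), and Psme1 (chr14:55578123-55581529, plus strand) and Psme2 (chr14:55587441-55591113, minus strand) close together on chromosome 14. The constitutive counterparts Psmb5 (chr14:54614119-54618022), Psmb6 (chr11:70525367-70527858) and Psmb7 (chr2:38588036-38644087) are dispersed. Psmb9 shares 212 exonic bases with Tap1, a peptide transporter gene, Psmb8 shares 498 with the antisense gene Gm20496, and Psmb7 shares 405 with Nek6. The strand setting of the counting is not given in the sources used here, so reads in these stretches cannot be assigned with certainty.

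The promoter windows of the 5 inducible genes are shown because these are the members that respond to interferon in other settings. Each runs from 250 bases before the RefSeq start to 50 bases after it (GRCm38.p6), 5′ to 3′ on the gene's strand; the capitals mark matches to the letters searched. The windows are chr17:34197945-34198244 for Psmb8, chr17:34187281-34187580 for Psmb9, chr8:105938343-105938642 for Psmb10, chr14:55578244-55578543 for Psme1 and chr14:55591052-55591351 for Psme2.
Psmb8: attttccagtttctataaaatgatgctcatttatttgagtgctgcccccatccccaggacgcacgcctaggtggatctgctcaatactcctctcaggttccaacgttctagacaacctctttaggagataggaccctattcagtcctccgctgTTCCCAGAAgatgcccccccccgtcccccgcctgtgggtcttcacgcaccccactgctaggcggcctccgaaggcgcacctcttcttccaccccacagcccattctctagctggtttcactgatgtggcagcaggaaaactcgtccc
Psmb9: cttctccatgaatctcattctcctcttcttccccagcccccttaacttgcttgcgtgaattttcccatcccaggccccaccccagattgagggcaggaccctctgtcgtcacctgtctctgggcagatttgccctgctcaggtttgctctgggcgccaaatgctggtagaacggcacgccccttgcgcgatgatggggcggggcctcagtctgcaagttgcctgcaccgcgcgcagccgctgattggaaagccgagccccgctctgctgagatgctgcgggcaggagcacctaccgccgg
Psmb10: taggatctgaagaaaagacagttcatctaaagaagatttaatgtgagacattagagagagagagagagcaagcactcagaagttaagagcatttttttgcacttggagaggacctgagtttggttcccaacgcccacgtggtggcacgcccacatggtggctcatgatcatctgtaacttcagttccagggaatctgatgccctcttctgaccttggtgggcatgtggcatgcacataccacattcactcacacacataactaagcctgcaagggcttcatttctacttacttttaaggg
Psme1: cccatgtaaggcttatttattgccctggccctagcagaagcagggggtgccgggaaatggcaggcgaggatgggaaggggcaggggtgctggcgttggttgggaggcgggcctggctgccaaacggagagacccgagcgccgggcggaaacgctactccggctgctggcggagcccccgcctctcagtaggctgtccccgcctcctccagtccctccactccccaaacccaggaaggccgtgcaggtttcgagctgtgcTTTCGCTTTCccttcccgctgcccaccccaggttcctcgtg
Psme2: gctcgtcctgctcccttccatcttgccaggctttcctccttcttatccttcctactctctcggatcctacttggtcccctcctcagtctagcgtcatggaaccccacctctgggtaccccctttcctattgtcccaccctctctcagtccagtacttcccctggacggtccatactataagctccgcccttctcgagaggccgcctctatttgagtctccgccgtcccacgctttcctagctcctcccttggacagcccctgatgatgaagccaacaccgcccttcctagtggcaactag

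Both strands were searched for GAAA, any 2 bases and GAAA, the core of an interferon-stimulated response element, and for TTCNNNGAA, the letters of an interferon-gamma-activated site. The first was present in 1 of the 5 windows, that of Psme1 as TTTCGCTTTC at positions 9 to 18 after the start, and in 3.44% of 32851 RefSeq promoter windows of the same length. The second was present in 1 of the 5, that of Psmb8 as TTCCCAGAA at positions -97 to -89, and in 8.30% of all windows. The NF-kB letters GGGA, any 4 bases and CC, and the Nfe2l1 letters TGACNNNGC, were in none of the 5, against 20.7% and 12.4% of all windows. Among 25 constitutive subunits with a window, 2 held the first, 1 the second, 7 the third and 4 the fourth. A missing match says only that these letters are not in the window. The windows of Psmb8, Psmb9 and Psme1 lie wholly inside the genes as GENCODE annotates them, downstream of the annotated starts.

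Levels are given as CPM after TMM scaling (normalised CPM), with 1 factor a library computed from trimmed log ratios of its genes. Per kb of the principal transcript, which gene of a pair stood higher in WT cultures under GM-CSF alone differed between the pairs. Psmb8 averaged 151 normalised CPM per kb there, against 48.0 for Psmb5. Psmb9 averaged 83.5 against 182 for Psmb6, and Psmb10 56.9 against 63.9 for Psmb7. Psme1 averaged 139 and Psme2 80.7 normalised CPM per kb. The 47 members ran from 10.1 for Psmf1, a proteasome inhibitor, to 257 for Psma7, an alpha subunit, on the same scale.

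EMT6 medium lowered 3 of the 5 inducible genes more than the average of the 31 constitutive subunits of the core and regulatory particles: Psmb10, Psmb8 and Psme1. Psmb9 and Psme2 stayed close to that average. Single constitutive subunits spread widely, with log2 fold changes from -1.65 to 1.28 in Cysltr1-/- and from -1.41 to 1.55 in WT cultures (TMM). Psmd6, the lowest of them, fell further than Psmb8 and Psme1 in both genotypes. Psmb10, the inducible trypsin-like subunit, had 20.5, 23.4 and 21.5 normalised CPM in EMT6 medium and 77.3, 79.7 and 83.8 with GM-CSF alone in Cysltr1-/- cultures. In WT cultures it had 25.3, 29.2 and 24.4 in EMT6 medium and 77.0, 64.8 and 81.9 with GM-CSF alone. All 6 EMT6 medium libraries were below all 6 GM-CSF libraries.

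Psmb8, the inducible chymotrypsin-like subunit, had 105, 104 and 109 normalised CPM in EMT6 medium against 260.0, 266 and 285 with GM-CSF alone in Cysltr1-/- cultures, and 111, 123 and 111 against 237, 230.3 and 269 in WT cultures. Psme1, the alpha chain of PA28, had 74.3, 72.4 and 75.0 against 156, 158 and 164 in Cysltr1-/- cultures, and 89.6, 87.3 and 83.6 against 159, 139 and 164 in WT cultures. For both genes every EMT6 medium library lay below every GM-CSF library. In edgeR's quasi-likelihood test, with p adjusted over 28334 genes and a call at an adjusted p under 0.05, Psmb10 fell by 1.88 ± 0.07 on the log2 scale in Cysltr1-/- (SE, as for all fold changes below; adjusted p = 6.2e-26) and by 1.52 ± 0.07 in WT cultures (3.2e-23). Psmb8 fell by 1.35 ± 0.06 (2.4e-25) and 1.10 ± 0.05 (3.5e-22), and Psme1 by 1.11 ± 0.05 (2.1e-22) and 0.83 ± 0.05 (2.4e-18), by the same edgeR test. These 3 genes kept their direction and call under every scaling, filter and left-out library tried.

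Psmb9, the inducible subunit that replaces Psmb6, had 74.1, 76.5 and 75.1 normalised CPM in EMT6 medium against 95.9, 92.6 and 94.5 with GM-CSF alone in Cysltr1-/- cultures, and 79.8, 77.5 and 81.4 against 115, 106 and 118 in WT cultures. Psme2, the beta chain of PA28, had 67.7, 67.5 and 71.6 against 90.5, 89.4 and 93.6 in Cysltr1-/- cultures, and 74.5, 76.6 and 70.4 against 79.1, 69.1 and 84.8 in WT cultures. The groups of Psmb9 were apart in both genotypes, and those of Psme2 overlapped in WT. In edgeR's test Psmb9 fell by 0.33 ± 0.05 in Cysltr1-/- (adjusted p = 2.9e-07) and by 0.51 ± 0.05 in WT cultures (3.9e-12), but the Cysltr1-/- value turned to a rise of 0.29 with library sizes alone. Psme2 fell by 0.40 ± 0.06 in Cysltr1-/- cultures (edgeR, 6.6e-08) and differed by -0.08 ± 0.06 in WT cultures (0.20), and library sizes alone turned these into 0.21 and 0.41.

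**Figure D1:**
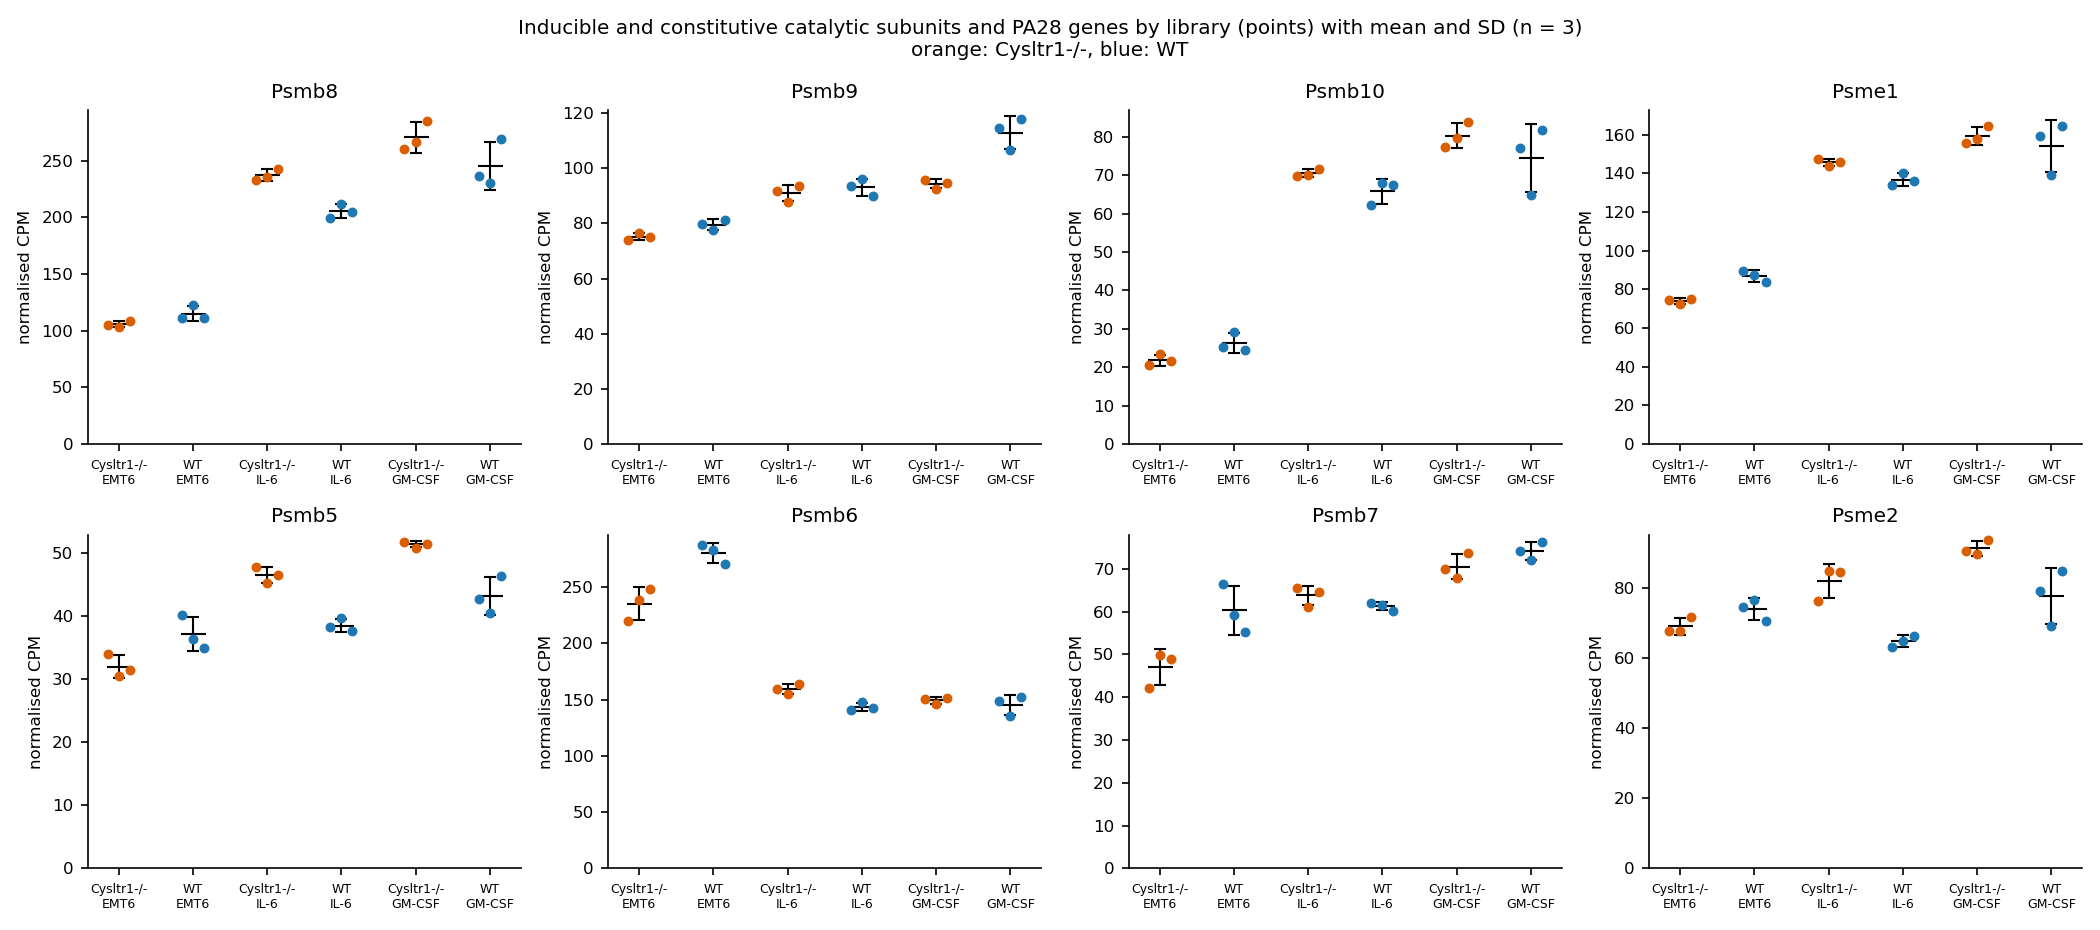
Normalised CPM (vertical axis, 1 panel per gene) of the 5 inducible genes and their 3 constitutive counterparts in every library (points), with group mean and SD, for the 6 groups along the horizontal axis. Psmb10, Psmb8 and Psme1 are low in the EMT6 medium groups, Psmb6 is high there, and Psme2 overlaps between EMT6 medium and GM-CSF alone in WT.

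The constitutive counterparts of the catalytic subunits did not mirror each other. Psmb6, replaced by Psmb9 in the immunoproteasome, had 219.6, 238 and 248 normalised CPM in EMT6 medium against 151, 146 and 151 with GM-CSF alone in Cysltr1-/- cultures, and 287, 283 and 270.3 against 149, 135 and 152 in WT cultures. It rose by 0.66 ± 0.05 on the log2 scale in Cysltr1-/- (edgeR, adjusted p = 2e-15) and by 0.94 ± 0.05 in WT cultures (7.2e-21), in each alternative tried. Its groups did not overlap. A processed pseudogene of the same name, Psmb6-ps2, was counted at no more than 7.83 CPM in any group.

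Psmb7, replaced by Psmb10, had 42.2, 49.8 and 49.0 normalised CPM in EMT6 medium against 69.9, 67.9 and 73.8 with GM-CSF alone in Cysltr1-/- cultures, and 66.5, 59.2 and 55.3 against 74.1, 72.0 and 76.3 in WT cultures. Psmb5, replaced by Psmb8, had 34.0, 30.6 and 31.4 against 51.8, 50.9 and 51.4 in Cysltr1-/- cultures, and 40.2, 36.3 and 35.0 against 42.7, 40.5 and 46.4 in WT cultures. The EMT6 medium libraries of both genes were lower without overlap. Both passed edgeR's test as falls, by 0.59 and 0.68 in Cysltr1-/- and by 0.30 and 0.22 in WT cultures for Psmb7 and Psmb5, but with library sizes alone the WT values turned to 0.20 and 0.27 and that of Psmb7 in Cysltr1-/- cultures to 0.02.

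Ratios of 2 genes within a library do not depend on its scaling. The log2 ratio of Psmb9 to Psmb6 counts was -1.57, -1.64 and -1.72 in EMT6 medium against -0.65, -0.66 and -0.68 with GM-CSF alone in Cysltr1-/- cultures, and -1.85, -1.87 and -1.73 against -0.38, -0.34 and -0.37 in WT cultures. For Psmb10 to Psmb7 it was -1.04, -1.09 and -1.19 against 0.15, 0.23 and 0.18 in Cysltr1-/- cultures, and -1.40, -1.02 and -1.18 against 0.06, -0.15 and 0.10 in WT cultures. For Psmb8 to Psmb5 it was 1.63, 1.76 and 1.79 against 2.33, 2.39 and 2.47 in Cysltr1-/- cultures, and 1.47, 1.75 and 1.66 against 2.47, 2.51 and 2.54 in WT cultures. All 3 ratios were lower in EMT6 medium without overlap in both genotypes. The mean differences were -0.98, -1.29 and -0.67 in Cysltr1-/- and -1.45, -1.20 and -0.88 in WT cultures, in the order just given.

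**Figure D2:**
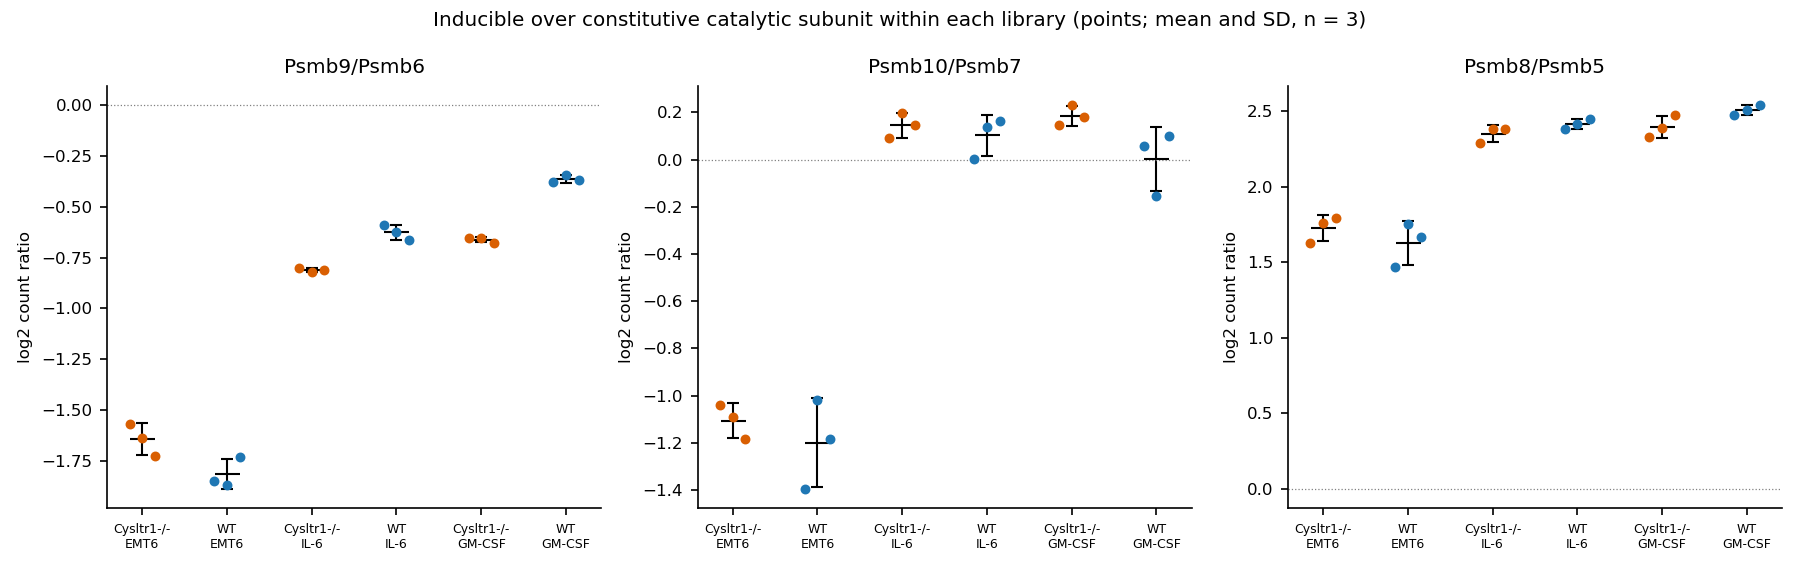
Log2 ratio of the counts of each inducible catalytic subunit to its constitutive counterpart (vertical axis) in every library of the 6 groups (horizontal axis), with 1 panel for each of the 3 pairs. All 3 ratios are lower in EMT6 medium than with IL-6 or GM-CSF alone, with no overlap between EMT6 medium and GM-CSF libraries.

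A score of the same kind, the mean log2 CPM of the 5 inducible genes minus that of the 31 constitutive subunits of the core and regulatory particles, averaged -0.35 ± 0.01 in EMT6 medium and 0.20 ± 0.01 with GM-CSF alone in Cysltr1-/- cultures (SD, n = 3 each). In WT cultures it averaged -0.41 ± 0.03 in EMT6 medium and 0.16 ± 0.07 with GM-CSF alone. The EMT6 medium libraries were lower without overlap. The differences were -0.55 and -0.57, but with medians over the members in place of means they were 0.14 in Cysltr1-/- and -0.27 in WT cultures. Those medians are of levels within a library, so the middle gene can differ between groups. Medians of the genes' own log2 changes (TMM) were lower for the inducible genes in both genotypes. They were -1.11 for inducible and -0.64 for constitutive genes in Cysltr1-/-, and -0.83 and -0.32 in WT cultures.

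The same comparison was tested gene by gene after scaling every library to the 31 constitutive subunits, an alternative added after the data were seen. On this scale Psmb10 fell by 1.41 ± 0.07 in Cysltr1-/- (edgeR, adjusted p = 5.3e-19) and by 1.28 ± 0.07 in WT cultures (3.1e-18). Psmb8 fell by 0.88 ± 0.05 (4.8e-17) and 0.86 ± 0.05 (8.7e-17), and Psme1 by 0.64 ± 0.05 (6.2e-13) and 0.60 ± 0.05 (3e-12), in the same edgeR fits. Psme2 did not pass in Cysltr1-/- cultures (0.06 ± 0.06, 0.30) and rose by 0.16 ± 0.06 in WT cultures (edgeR, 0.014). Psmb9 rose by 0.14 ± 0.06 in Cysltr1-/- (edgeR, 0.019) and fell by 0.27 ± 0.05 in WT cultures (3.8e-05), and the interaction of these was 0.41 ± 0.08 (8.8e-05). Psmb9 was the only one of the 5 with a called interaction on this scale; with TMM its interaction was 0.18 ± 0.07 (edgeR, 0.061). Tap1, which shares exonic bases with Psmb9, was higher in EMT6 medium in both genotypes (177 and 210 normalised CPM against 160.0 and 164), and its part in the Psmb9 counts was not tested. Of the 14441 genes that meet the members' CPM limit, the shares called on this scale were 47.8% higher and 39.6% lower in Cysltr1-/- cultures, 37.6% higher and 48.6% lower in WT cultures, and 39% higher and 9.6% lower for the interaction.

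Assembly factors and the nuclear activator were among the members that fell on the constitutive scale. Psmg1, a chaperone that pairs alpha subunits, fell by 1.55 in Cysltr1-/- (edgeR, adjusted p = 6.9e-18) and by 1.10 in WT cultures (4.4e-14). Its partner Psmg2 fell by 1.07 and 0.68, and Psmg4, which acts on the alpha ring, by 1.01 and 0.95. Psme3, the nuclear activator PA28 gamma, fell by 1.39 (4.1e-20) and 0.98 (5.1e-16), by the same edgeR fits. Psmf1 fell by 0.37 and 0.30, while Psmd5, a chaperone of the regulatory base, rose by 0.22 and 0.21. Psme4, the PA200 activator, Psme2b and Psmg3 did not pass in either genotype. Psme2b averaged 22.9 to 34.2 normalised CPM over the groups; how reads that fit both it and Psme2 were counted is not given in the sources used here.

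**Figure D3:**
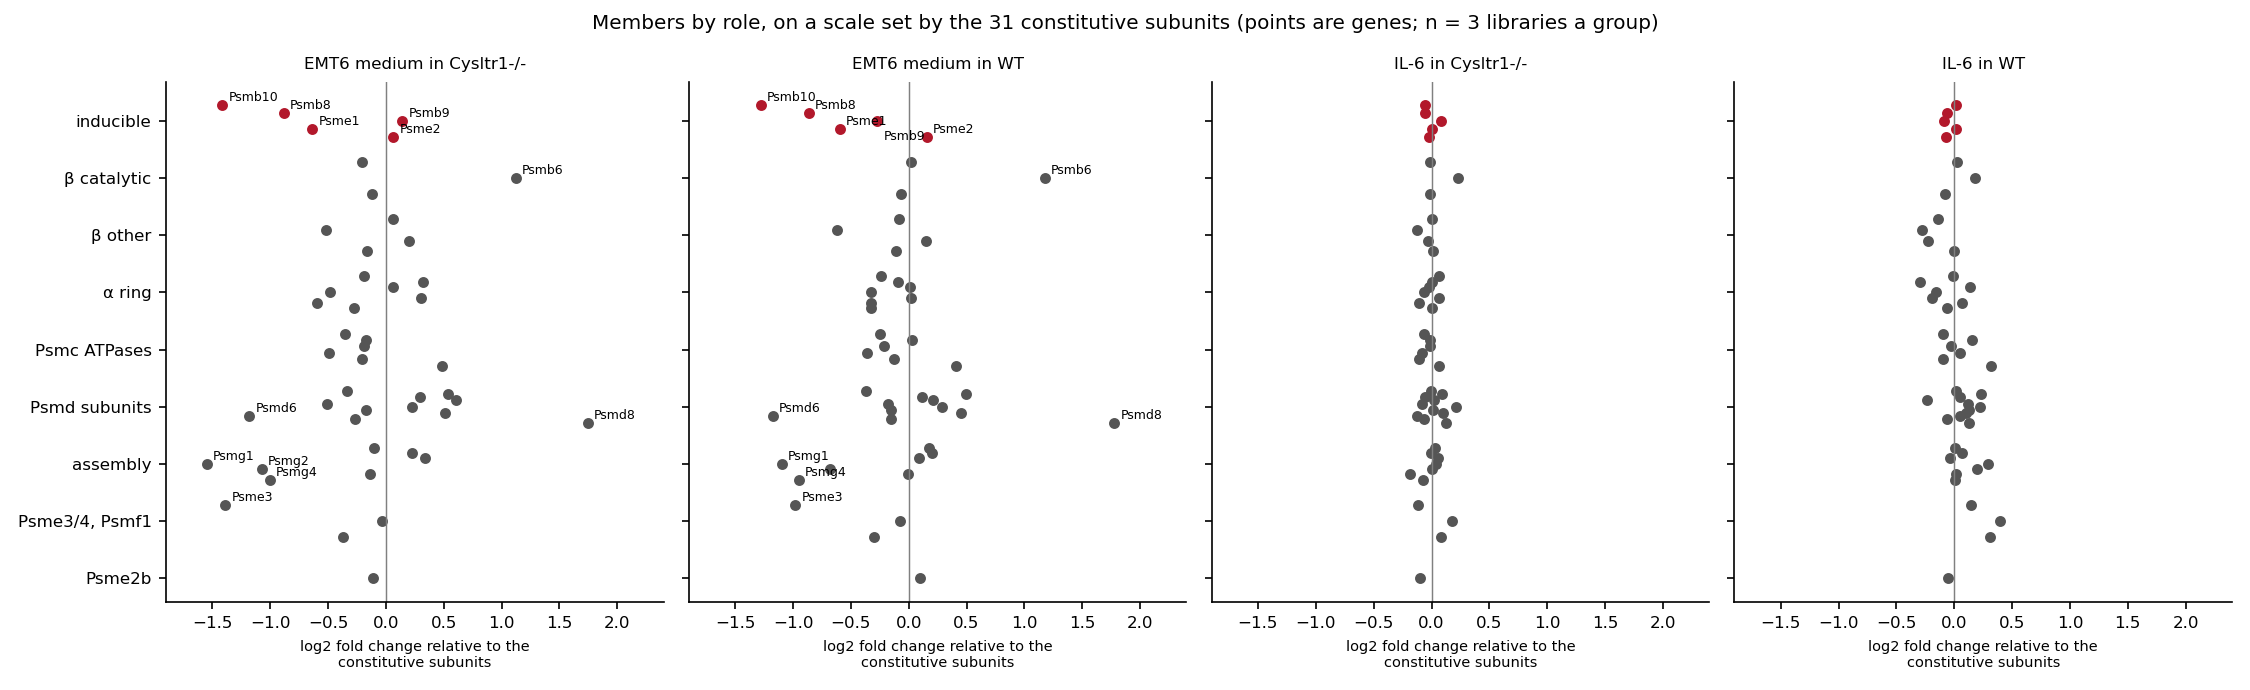
Log2 fold change relative to the 31 constitutive subunits (horizontal axis) of each member, ordered by role, for EMT6 medium and IL-6 in Cysltr1-/- and WT cultures (4 panels). Psmb10, Psmb8, Psme1, Psme3, Psmg1, Psmg2 and Psmg4 lie well below 0 in EMT6 medium in both genotypes, and with IL-6 the members lie closer to 0.

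Within the constitutive proteasome the subunits also moved apart. Psmd8, a lid-associated subunit, had 703, 762 and 791 normalised CPM in EMT6 medium against 305, 305 and 320.2 with GM-CSF alone in Cysltr1-/- cultures, and 897, 898 and 852 against 299.6, 296 and 310.4 in WT cultures. Psmd6, another lid subunit, had 26.4, 25.7 and 26.8 against 79.2, 82.0 and 86.6 in Cysltr1-/- cultures, and 28.3, 30.0 and 25.4 against 71.2, 72.8 and 77.6 in WT cultures. The 2 lid genes moved in opposite directions with no overlap between libraries. In edgeR's test Psmd8 rose by 1.28 ± 0.05 in Cysltr1-/- (adjusted p = 4.6e-27) and by 1.55 ± 0.05 in WT cultures (4.8e-30), and Psmd6 fell by 1.65 ± 0.06 (3e-26) and 1.41 ± 0.06 (4.1e-24). Both held their direction and call in every alternative. Per kb, Psmd8 averaged 488 normalised CPM in Cysltr1-/- and 573 in WT cultures with EMT6 medium, against 202 and 196 with GM-CSF alone.

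With TMM scaling, 3 of the 47 members were called higher and 40 lower by EMT6 medium in Cysltr1-/- cultures, and 5 higher and 34 lower in WT cultures. Among those 14441 genes, 35.1% were called higher and 56% lower in Cysltr1-/- cultures, and 31.7% higher and 58.4% lower in WT cultures. Members were thus called lower in 85.1% and 72.3% of cases. Their median log2 fold change was -0.64 in Cysltr1-/- and -0.34 in WT cultures, beside -0.36 and -0.38 for all 14441 genes. Leaving out any 1 of the libraries compared gave 46 calls in Cysltr1-/- cultures, against 43 in the full fit. The split depends on the scaling. With library sizes alone it was 18 higher and 18 lower in Cysltr1-/- and 26 higher and 9 lower in WT cultures. With only genes above the CPM limit in the fit it was 10 and 30, then 18 and 16, and after subtracting reads estimated from the density in no annotated feature 8 and 30, then 12 and 22. DESeq2 size factors gave 2 and 45, then 3 and 41. Over the same genes above the CPM limit, these settings moved the median by 0.61 and 0.49 for library sizes, by 0.33 and 0.40 for the CPM limit, by 0.12 and 0.17 for the subtraction (14231 genes in both fits) and by -0.27 and -0.14 for DESeq2 size factors, with Cysltr1-/- cultures first in each pair.

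**Figure D4:**
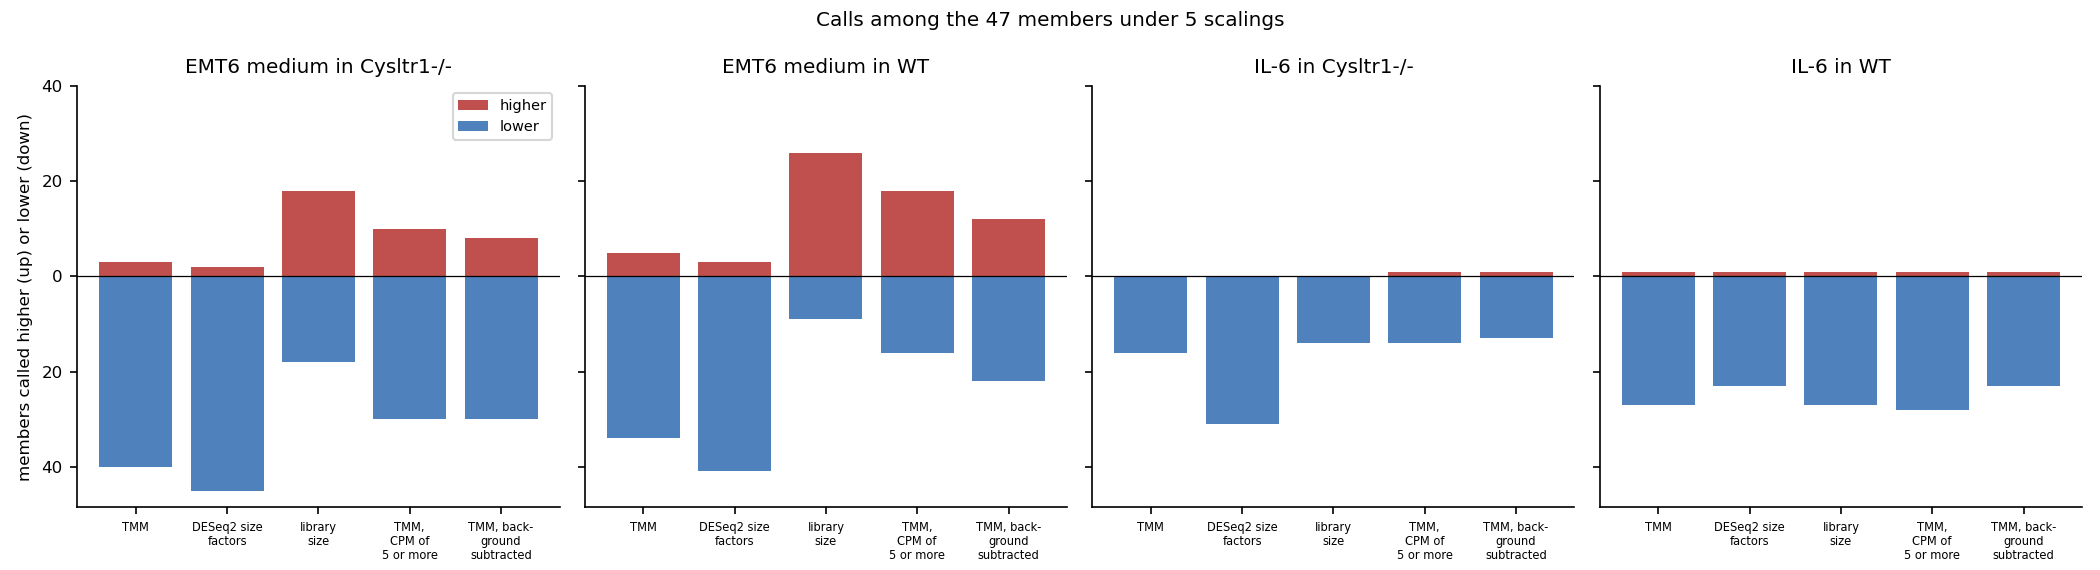
Number of the 47 members called higher or lower (vertical axis; higher above 0, lower below it) for EMT6 medium and IL-6 in each genotype under 5 scalings of the libraries (horizontal axis). The calls for EMT6 medium are mostly lower with TMM and DESeq2 size factors, and mixed with library sizes alone.

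By role, all 7 alpha ring genes were called lower in both genotypes with TMM, with median log2 changes of -0.66 in Cysltr1-/- and -0.47 in WT cultures. Of the 6 ATPases, 5 fell in each genotype, and Psmc6 rose in WT cultures (0.18, edgeR adjusted p = 0.0031) and differed by 0.01 in Cysltr1-/- cultures, with no call for the interaction (-0.16, 0.11). Of the 11 non-ATPase subunits 2 rose and 7 fell in Cysltr1-/- cultures, and 3 rose and 6 fell in WT cultures. Among them Psmd13, a lid subunit, had 87.0, 92.0 and 92.4 normalised CPM in EMT6 medium against 78.5, 82.5 and 85.0 in Cysltr1-/- cultures, with a difference of 0.14 ± 0.05 (edgeR, 0.013) that turned to -0.13 with DESeq2 size factors and to values of -0.12 to -0.04 whichever of the 6 libraries was left out. Psmd11, a lid subunit, had 99.4, 97.4 and 96.2 in EMT6 medium against 81.8, 80.7 and 82.4 with GM-CSF alone in WT cultures and rose by 0.26 ± 0.05 (edgeR, 1.4e-05), a call lost at 0.12 without the second GM-CSF library and at 0.11 without the first EMT6 medium library. Of the 4 non-catalytic beta genes, 4 fell in Cysltr1-/- and 3 in WT cultures, among which Psmb2 fell most, by 0.98 and 0.85.

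Psmg1 had 9.48, 7.85 and 8.22 normalised CPM in EMT6 medium against 33.1, 35.9 and 35.2 with GM-CSF alone in Cysltr1-/- cultures, and 9.43, 9.83 and 10.4 against 24.9, 22.8 and 26.6 in WT cultures. Psme3 had 41.8, 41.0 and 38.5 against 146, 145 and 149 in Cysltr1-/- cultures, and 50.4, 44.4 and 47.8 against 113, 111 and 106 in WT cultures. Neither gene's groups overlapped. Psmg1 fell by 2.01 ± 0.08 in Cysltr1-/- (edgeR, adjusted p = 2.9e-25) and fell by 1.34 ± 0.08 in WT cultures (3.1e-19), and Psme3 by 1.86 ± 0.06 (5e-30) and 1.21 ± 0.06 (1.5e-23). Background reads were estimated at 8.37% of the Psmg1 counts of Cysltr1-/- and 3.99% of those of WT cultures in EMT6 medium. The estimate took the density of reads in no annotated feature over the genome outside annotated exons, introns included. For Psmb10 the estimates were 4.13% and 1.90%, and for Psmb8 1.68% and 0.862%.

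Among genes around the proteasome that are not members, other proteasome genes were called only lower. Class I presentation genes were called in both directions, as were genes at large in this medium. Of 16 other proteasome genes, such as deubiquitinases and further assembly factors, 12 were lower in Cysltr1-/- and 13 in WT cultures, and none higher, where 56% and 58.4% of the 14441 genes were lower. Of 11 class I presentation genes 5 were higher and 6 lower in Cysltr1-/-, and 5 higher and 5 lower in WT cultures, close to the shares over those genes (35.1% and 31.7% higher). Tap1 averaged 177 ± 7.2 normalised CPM in EMT6 medium and 160.0 ± 2.6 with GM-CSF alone in Cysltr1-/- cultures, and 210 ± 6.6 and 164 ± 7.5 in WT cultures (SD, n = 3 each). Tap2, its partner in the peptide transporter, averaged 84.7 against 172 and 78.6 against 181 in the same order, and Nlrc5, the transactivator of class I genes, 28.5 against 13.6 and 22.5 against 8.45. In WT cultures Tap1 (0.36) and Nlrc5 (1.42) rose and Tap2 fell by 1.21 in edgeR's test, each in every alternative tried. Irf1 and Irf8 bind interferon response elements. Irf1 differed by 0.20 in Cysltr1-/- and 0.18 in WT cultures, with values of -0.07 and 0.04, not called, under DESeq2 size factors, and the Cysltr1-/- call was lost whichever of the 6 libraries was left out. Irf8 differed by -0.20 in Cysltr1-/- cultures (edgeR, adjusted p = 0.00014), which turned to 0.41 with library sizes alone, and by 0.19 in WT cultures, a call lost at 0.05 with DESeq2 size factors. Its interaction was -0.40 (edgeR, 6.5e-06) and was called in every alternative tried.

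Pomp, the assembly factor of the beta ring, averaged 65.1 against 93.6 normalised CPM in Cysltr1-/- and 73.2 against 117 in WT cultures, and fell by 0.68 in the WT test in every alternative. Nfe2l1, which drives proteasome genes when degradation is impaired, fell by 0.94 in Cysltr1-/- cultures (edgeR, 4.7e-21) and differed by -0.11 in WT cultures, and its interaction was -0.83 (edgeR, 6.9e-13). The Cysltr1-/- fall and the interaction were called in every alternative tried, while the WT value turned to 0.39 with library sizes alone. Nfe2l2 differed by -0.30 in Cysltr1-/- and -0.06 in WT cultures, and Sem1, a small lid subunit, by -0.07, not called, and -0.25. With library sizes alone these turned to 0.32 and 0.43 for Nfe2l2 and to 0.54 and 0.25 for Sem1.

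Cell type markers moved with the medium. The summed level of 7 dendritic markers ran from 98.4 to 115 CPM in EMT6 medium against 986 to 1015 with GM-CSF alone in Cysltr1-/- cultures, and from 115 to 120 against 795 to 896 in WT cultures. Neutrophil markers ran from 1931 to 2261 against 5155 to 5387, and from 3691 to 4021 against 9388 to 10167, and monocyte markers from 992 to 1134 against 2166 to 2218, and from 1690 to 1820 against 2767 to 3041. B-lineage markers ran from 417 to 468 against 177 to 186, and from 775 to 816 against 313 to 323. The dendritic sum thus stood well below its GM-CSF level and the B-lineage sum above it, without overlap. No marker of any list was at 0 over a whole group. Of the dendritic genes Flt3 and Xcr1 rose in both genotypes and Siglech in Cysltr1-/- cultures, while the others fell. Against the lower neutrophil and monocyte sums, Cd68 rose in both genotypes, Mmp8 in WT, and Ly6g and Ly6c2 in Cysltr1-/- cultures. Carcinoma and stroma markers ran from 64.4 to 84.6 against 30.1 to 30.9 in Cysltr1-/- and from 47.8 to 51.6 against 39.5 to 41.9 in WT cultures. Against that rise, Pdgfrb averaged 11.0 against 13.5 in Cysltr1-/- and 14.8 against 20.6 in WT cultures, and Epcam 8.37 against 11.1 in WT cultures. The other markers of that list rose in both genotypes, and Epcam rose in Cysltr1-/- cultures. The sum of eosinophil, basophil and mast cell markers ran from 550.4 to 624 against 202 to 224 in Cysltr1-/- and from 887 to 992 against 667 to 749 in WT cultures. Both sums were higher in EMT6 medium through the eosinophil genes Prg2 (537 against 338 in WT) and Epx (359 against 257 in WT). Cpa3, Ms4a2 and Siglecf were lower there in both genotypes, and Mcpt8 was lower in WT and higher in Cysltr1-/- cultures. The part of these shifts, and of the higher share of reads in no annotated feature, in the levels of the inducible genes was not tested.

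IL-6 lowered proteasome genes slightly and left the balance of inducible and constitutive genes nearly as it was. In WT cultures 1 member was called higher and 27 lower, against 18.8% and 19.8% of the 14441 genes. In Cysltr1-/- cultures 0 were called higher and 16 lower, against 9.51% and 16.4%. The members called lower made up 34.0% in Cysltr1-/- and 57.4% in WT cultures, with median log2 changes of -0.14 and -0.18 beside -0.02 and -0.01 for all those genes. None of the 47 changed by 1.5-fold or more. The WT count ran from 20 to 31 when single libraries were left out. The Cysltr1-/- count ran from 9 (without the third GM-CSF library) to 13 in such fits, below the 16 of the full fit. It was 31 with DESeq2 size factors.

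The 3 largest falls in WT cultures were Psma2, Psmb2 and Psmd13. Psma2, an alpha ring gene, had 89.4, 91.2 and 89.1 normalised CPM with IL-6 against 123, 119 and 137 with GM-CSF alone. Psmb2, a non-catalytic beta subunit, had 72.6, 76.9 and 72.6 against 106, 102 and 101, and Psmd13 had 73.8, 79.5 and 76.0 against 106, 96.3 and 107. The IL-6 libraries were lower without overlap for all 3. They fell by 0.49 ± 0.05 (edgeR, adjusted p = 2.3e-10), 0.48 ± 0.05 (4.3e-10) and 0.43 ± 0.05 (4.1e-09). Psme4, which caps the core particle without ubiquitin, had 170.3, 164 and 164 with IL-6 against 142, 149 and 142 and was the member that rose, by 0.21 ± 0.05 (edgeR, 0.0016). By role, 5 of 7 alpha, 4 of 4 non-catalytic beta, 4 of 6 ATPase and 4 of 11 non-ATPase genes fell, and 2 of 7 assembly factors.

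All 5 inducible genes passed as lower with IL-6 in WT cultures. Psmb8 had 199.6, 212 and 205 normalised CPM with IL-6 against 237, 230.3 and 269 with GM-CSF alone, Psmb9 93.6, 96.0 and 89.9 against 115, 106 and 118, and Psme2 63.1, 64.9 and 66.3 against 79.1, 69.1 and 84.8. Their libraries did not overlap, and the falls were 0.26 (edgeR, adjusted p = 0.00015), 0.28 (1.5e-05) and 0.27 (0.00038). Psmb10 had 62.2, 67.9 and 67.5 against 77.0, 64.8 and 81.9, and Psme1 134, 140.2 and 136 against 159, 139 and 164. These 2 overlapped through the second GM-CSF library, with falls of 0.19 (edgeR, 0.026) and 0.18 (0.0075); both calls were lost without the third GM-CSF library, at -0.12 and -0.14. Of the counterparts, Psmb7 fell by 0.28 (edgeR, 0.00031) and Psmb5 by 0.17 (0.033), while Psmb6 differed by -0.02 (0.88).

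Relative to the 31 constitutive subunits no inducible gene was called with IL-6 in either genotype. In WT cultures their log2 differences on that scale were 0.01 for Psmb10, -0.06 for Psmb8, -0.09 for Psmb9, 0.02 for Psme1 and -0.07 for Psme2. Members called there were Psme4, Psmf1 and Psmg1, higher by 0.40, 0.31 and 0.29, and in Cysltr1-/- cultures none of the 16 outside the scaling set. Of the 14441 genes, 40.9% were called higher and 7.84% lower on that scale in WT cultures, and 19.6% and 5.66% in Cysltr1-/- cultures. The score of inducible minus constitutive genes averaged 0.18 ± 0.01 with IL-6 and 0.20 ± 0.01 with GM-CSF alone in Cysltr1-/- cultures, and 0.13 ± 0.02 and 0.16 ± 0.07 in WT cultures (SD, n = 3 each). The differences were -0.01 in Cysltr1-/- and -0.03 in WT cultures, with an SD between libraries of 0.01 and 0.05, and the libraries of the 2 treatments overlapped in both genotypes.

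The exchange pairs with IL-6 moved little in WT cultures. The log2 ratio of Psmb9 to Psmb6 was -0.59, -0.62 and -0.66 with IL-6 against -0.38, -0.34 and -0.37 with GM-CSF alone, and that of Psmb8 to Psmb5 2.38, 2.42 and 2.45 against 2.47, 2.51 and 2.54, both lower without overlap. That of Psmb10 to Psmb7 was 0.00, 0.14 and 0.16 against 0.06, -0.15 and 0.10, and overlapped. In Cysltr1-/- cultures the Psmb9 to Psmb6 ratio was -0.80, -0.82 and -0.81 against -0.65, -0.66 and -0.68, without overlap, and the other pairs overlapped.

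In Cysltr1-/- cultures the largest falls with IL-6 were those of Psmg3, Psmd6 and Psmb2. Psmg3, an assembly chaperone, had 13.1, 13.7 and 13.0 normalised CPM with IL-6 against 16.2, 16.6 and 16.6 with GM-CSF alone. Psmd6 had 66.2, 70.7 and 70.2 against 79.2, 82.0 and 86.6, and Psmb2 72.2, 71.2 and 73.8 against 86.6, 86.1 and 86.9. Each was lower in all 3 IL-6 libraries, by 0.31 (edgeR, adjusted p = 0.012), 0.26 (0.00059) and 0.26 (0.00026). Of the inducible genes Psmb8 (0.19, edgeR 0.0085) and Psmb10 (0.18, 0.04) fell, the first call lost at -0.15 without the third GM-CSF library and the second whichever library was left out, and Psmb9, Psme1 and Psme2 did not pass, with -0.05, -0.13 and -0.15.

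Outside the members, Pomp averaged 72.0 ± 1.1 normalised CPM with IL-6 and 117 ± 12 with GM-CSF alone in WT cultures, a fall of 0.71 ± 0.05 (edgeR, adjusted p = 2.9e-14), and Sem1 averaged 170 ± 3.6 and 242 ± 27, a fall of 0.52. In Cysltr1-/- cultures they fell by 0.26 and 0.25. Nfe2l1 averaged 344 ± 20 with IL-6 and 254 ± 15 with GM-CSF alone in WT cultures and rose by 0.44 (edgeR, 1.3e-09). In Cysltr1-/- cultures it differed by -0.11, not called, and its interaction was -0.55 (edgeR, 1.6e-07). Of 16 other proteasome genes 4 rose and 3 fell in WT cultures, and of 9 factors that induce the immunoproteasome 2 rose and 2 fell, close to the 18.8% higher and 19.8% lower over all 14441 genes. Nlrc5 differed by 0.19 in Cysltr1-/- cultures, not called, and rose by 0.67 in WT cultures, with an interaction of -0.48 (edgeR, 0.015). That call was lost at -0.42 without the first Cysltr1-/- library with GM-CSF alone, at -0.39 without the first WT library with IL-6 and at -0.45 without the first WT library with GM-CSF alone. In WT cultures Tap1 rose by 0.18 and Adrm1, a ubiquitin receptor, by 0.16, the last a call that 5 of 6 left-out libraries ended, while Tap2, Irf1, Irf8 and Nfe2l2 were not called. Dendritic markers summed to 776 to 830 CPM with IL-6 against 986 to 1015 with GM-CSF alone in Cysltr1-/- cultures, and to 628 to 649 against 795 to 896 in WT cultures, both lower without overlap. Neutrophil sums were also lower in both genotypes (8325 to 8705 against 9388 to 10167 in WT), though Mmp8, Csf3r and Cxcr2 rose. Monocyte sums were higher (3205 to 3400 against 2767 to 3041 in WT), though Adgre1, Ly6c2 and Ccr2 fell. The part of these shifts in the falls was not tested.

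Genotype differences were small and had opposite signs in different cultures. Under GM-CSF alone 16 members were called higher and 6 lower in Cysltr1-/- than in WT cultures, against 16.1% and 30.9% of the 14441 genes. With IL-6 14 were higher and 0 lower, against 16% and 33.7%, and the 14 became 9 without the third library of either genotype. In EMT6 medium 0 were higher and 32 lower, against 29.7% and 36.5%. The medians were 0.08, 0.09 and -0.21 in these 3 cultures, beside -0.04, -0.06 and -0.05 for all those genes. With library sizes alone the splits were 31 higher and 4 lower under GM-CSF alone and 9 higher and 5 lower in EMT6 medium, so the fall in EMT6 medium depended on the scaling, which moved the median of all genes by 0.24 there, by 0.12 under GM-CSF alone and by 0.14 with IL-6.

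Under GM-CSF alone Psmg1 had 33.1, 35.9 and 35.2 normalised CPM in Cysltr1-/- cultures and 24.9, 22.8 and 26.6 in WT cultures, a rise of 0.48 (edgeR, adjusted p = 1.2e-07). Psme3 had 146, 145 and 149 against 113, 111 and 106 (0.41, 7.4e-09), and Psmg3 16.2, 16.6 and 16.6 against 12.3, 11.2 and 13.3 (0.41, 0.00036) by the same edgeR test. Psma2 had 98.0, 98.2 and 101 against 123, 119 and 137 and fell by 0.35 (3.7e-07), Psmd13 fell by 0.33 (9.5e-07) and Psma5, an alpha ring gene, by 0.29 (0.001), a call lost at -0.18 without the third WT library. None of these genes' libraries overlapped between the genotypes. Of the inducible genes Psmb9 was lower in Cysltr1-/- (0.26 on the log2 scale) and Psme2 and Psmb8 were higher (0.22 and 0.14). The log2 ratio of Psmb9 to Psmb6 was lower in Cysltr1-/- cultures by 0.30 at the mean and that of Psmb8 to Psmb5 by 0.11, and that of Psmb10 to Psmb7 was higher by 0.18, each without overlap. The score did not separate the genotypes, with 0.20 ± 0.01 in Cysltr1-/- and 0.16 ± 0.07 in WT cultures.

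With IL-6 the largest differences were higher levels in Cysltr1-/- cultures of Psme2 (0.34, edgeR adjusted p = 9.1e-06), Psmg1 (0.29, 0.00041) and Psmg3 (0.28, 0.019). Psme2 had 76.3, 84.8 and 84.4 normalised CPM in Cysltr1-/- and 63.1, 64.9 and 66.3 in WT cultures, without overlap. In EMT6 medium the largest were lower levels of Psmd10, an assembly chaperone also known as gankyrin, with 21.3, 20.1 and 22.7 in Cysltr1-/- and 37.6, 33.5 and 31.6 in WT cultures (fall of 0.68, edgeR 1.8e-09). Psma1 had 97.5, 97.3 and 114 against 138, 145 and 133 (fall of 0.43, 2.2e-08), and Psmc1 63.0, 63.5 and 63.8 against 83.6, 86.6 and 84.6 (fall of 0.42, 2.1e-08). The libraries of these 3 genes did not overlap between the genotypes. Neutrophil markers summed to 5155 to 5387 CPM in Cysltr1-/- and 9388 to 10167 in WT cultures under GM-CSF alone, and to 1931 to 2261 and 3691 to 4021 in EMT6 medium. Under GM-CSF alone eosinophil, basophil and mast cell markers summed to 202 to 224 against 667 to 749, B-lineage markers to 177 to 186 against 313 to 323, and monocyte markers to 2166 to 2218 against 2767 to 3041. Of all lists only the dendritic sum was higher in Cysltr1-/- cultures there, at 986 to 1015 against 795 to 896. Single markers went against their sums, such as Mrc1 (higher) and Cd209a (lower). The part of these shifts in the genotype differences was not tested.

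The response to IL-6 itself differed between the genotypes for 5 members, all with a smaller fall in Cysltr1-/- cultures, against 5.24% of the 14441 genes higher and 8.59% lower. The interactions were 0.37 ± 0.07 for Psma2 (edgeR, adjusted p = 0.00063), 0.32 ± 0.07 for Psmd13 (0.0022), 0.33 ± 0.10 for Psma5 (0.027), 0.27 ± 0.08 for Psmb3 (0.038) and 0.23 ± 0.07 for Psmb9 (0.033). The first 2 held in every alternative tried; the calls of Psma5, Psmb3 and Psmb9 were lost under DESeq2 size factors. The count was 2 to 7 when single libraries were left out, and it was 2 or 3 without 8 of the 12 libraries. Psma5 had 35.6, 42.6 and 39.3 normalised CPM with IL-6 against 40.1, 40.8 and 41.7 with GM-CSF alone in Cysltr1-/- cultures, and 37.3, 38.5 and 37.8 against 48.8, 42.7 and 56.6 in WT cultures. Psmb3, a non-catalytic beta subunit, had 52.2, 50.2 and 51.8 against 58.1, 53.5 and 60.8, and 43.9, 46.3 and 43.0 against 59.5, 57.6 and 61.6. For both genes the WT groups were apart, and the third WT library with GM-CSF alone was the highest of all for Psma5. DESeq2 size factors gave 2 higher and 2 lower among the members in place of 5 and 0.

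**Figure D5:**
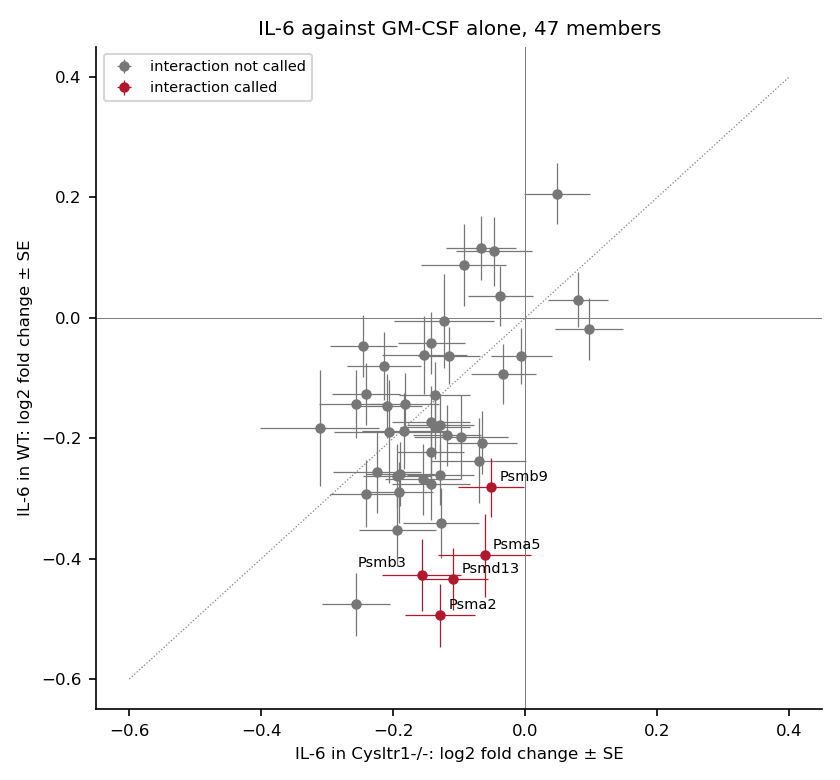
Log2 fold change with IL-6 against GM-CSF alone of each of the 47 members in Cysltr1-/- cultures (horizontal axis) and WT cultures (vertical axis), with the 5 members whose interaction was called in red. Most members lie below 0 on both axes, and the 5 in red are lower in WT than in Cysltr1-/- cultures.

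For EMT6 medium, which was set against the same GM-CSF libraries as IL-6, 31 members had a called interaction with the genotype, all lower, and 0 higher, against 21.2% of the 14441 genes higher and 23.2% lower, and the median was -0.27 beside 0.04. Library sizes alone gave 3 higher and 14 lower. Psmg1 (-0.68, edgeR adjusted p = 1.8e-05), Psme3 (-0.65, 1e-08) and Psmg2 (-0.62, 0.00027) were the largest. On the scale of the 31 constitutive subunits, the called interactions among the other 16 members were those of Psmb9, higher by 0.41, and of Psmg1 (-0.45), Psme3 (-0.41), Psmg2 (-0.39) and Psmd10 (-0.28, edgeR 0.049). The interactions of Psmb10, Psmb8, Psme1 and Psme2, which passed with TMM at -0.37, -0.25, -0.27 and -0.32, were not called on that scale.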

How the data were processed

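Poly(A) RNA of 18 libraries was sequenced after poly(A) selection with a NEBNext kit, per the labels' protocols. The analysis used deposited raw counts per gene, which the authors made by aligning to mm10 (HISAT2 2.1.0) and counting with HTSeq 0.13.5, per the submitters' processing notes; the notes also name DESeq2 1.34.0. The strand setting and annotation are not given in the sources used here. All 55536 gene IDs matched GENCODE M21, which gave symbols and biotypes. Left out of library sizes and tests were 26248 numbered entries (between 0.0399% and 0.446% of what was counted), 97 spike-ins without a read and the summary lines. A normalized table of the series with 18 columns was not used.

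edgeR 4.0.16 in R 4.3.3 fitted all 18 libraries with 1 mean per group (TMM, filterByExpr, quasi-likelihood F test). It tested 28334 genes with a common biological coefficient of variation of 0.048, with Benjamini-Hochberg adjustment over all of them. A gene was called at an adjusted p under 0.05. Background shares were taken over 14441 genes that reach a mean CPM of 5 in 1 group. Levels per kb use the longest principal transcript. Scores and ratios of members were formed within each library and have no test. Alternatives were DESeq2 1.42.0 and its size factors, library sizes alone, other filters, a fold of 1.5, a fit of only the 2 groups at issue, a replicate block, leaving out single libraries, and the subtraction of reads estimated from the density in no annotated feature. The scaling to the 31 constitutive subunits was added after the data were seen. The fit was also run on simulated counts with changes planted only in the WT group with IL-6. That run does not bear on the EMT6 medium comparisons.

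The members and the gene lists were chosen with earlier results of these data known. Values in every library are given for the 5 inducible genes and their 3 counterparts, and in each comparison for the 3 largest rises and the 3 largest falls among called members. Non-member genes named are a short list of proteasome, class I and interferon factors chosen with them, of which 1 is not reported here. Replicates of a group differed by more than sampling noise (chi-square per degree of freedom 1.64 to 7.51).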

Additional observations from a re-analysis of the deposited data

Results flagged for a closer look

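The response to IL-6 differed between Cysltr1-/- and WT cultures in a test of the difference itself (edgeR interaction term, log2 scale) for Psma2 (0.37), Psma5 (0.33), Psmd13 (0.32), Psmb3 (0.27) and Psmb9 (0.23). All 5 had called falls with IL-6 in WT cultures and no call in Cysltr1-/- cultures. They make up 10.6% of the 47 members, all higher. Of the 14441 genes 13.8% were called, 5.24% higher and 8.59% lower. DESeq2 size factors gave 2 members higher and 2 lower, and fits with 1 library left out gave 2 to 7 calls.

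For EMT6 medium the same kind of test passed for 31 members, all lower, against 21.2% of the 14441 genes higher and 23.2% lower. Here are those among the inducible genes, their counterparts and the members with the 3 largest rises or falls in a comparison. They were Psmg1 (-0.68), Psme3 (-0.65), Psmg2 (-0.62), Psmd10 (-0.51), Psmb5 (-0.46), Psmb10 (-0.37), Psmc1 (-0.35), Psme2 (-0.32), Psmb7 (-0.29), Psmb6 (-0.29), Psme1 (-0.27), Psmd8 (-0.27), Psmb8 (-0.25), Psmd6 (-0.24), Psme4 (-0.20) and Psmd11 (-0.19). Psme2b (-0.44) and Psmf1 (-0.30) were among the other members that passed. A negative value means a lower response in Cysltr1-/- than in WT cultures. With TMM, Psmb6 and Psmd8, which rose in both genotypes, thus rose less in Cysltr1-/- cultures. Their values are near the median of all 47 members (-0.27), an offset that depends on the scaling: with library sizes alone it was -0.15. On the scale of the constitutive subunits, Psmb10, Psmb8, Psme1 and Psme2 had no called interaction.

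Reads in no annotated feature, which lie outside the gene counts, averaged 50.2% in EMT6 medium against 17.6% with GM-CSF alone in Cysltr1-/- cultures, and 36.2% against 14.2% in WT cultures. Their source was not tested.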

How the results depend on the processing

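The calls of Psmb10, Psmb8 and Psme1 as lower and of Psmb6 and Psmd8 as higher in EMT6 medium held in both genotypes under every scaling, filter, tool and left-out library run. The counts of called members depended more on the settings, and the cause was not tested. At a fold of at least 1.5 they were 1 for the genotype in EMT6 medium, 13 for the WT response to that medium, 3 for its interaction with EMT6 medium, and 0 for IL-6 in either genotype, for the genotype under GM-CSF or with IL-6 and for its interaction with IL-6. IL-6 in Cysltr1-/- gave 31 with DESeq2 size factors, 32 with DESeq2 and 33 with only the groups compared. The genotype under GM-CSF gave 35 with library sizes alone and 36 with genes of at least 5 CPM, and the genotype with IL-6 gave 39 and 42, 9 with DESeq2, 32 with only the groups compared and 25 after background subtraction. The genotype in EMT6 medium gave 14 with library sizes alone and 20 after subtraction, its interaction 17 with library sizes alone, and the interaction with IL-6 8 with only the groups compared.

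With medians over members the inducible minus constitutive difference was 0.059 for IL-6 and 0.14 for EMT6 medium in Cysltr1-/-, -0.27 for the WT response to EMT6 medium, -0.25, -0.13 and 0.15 for the genotype under GM-CSF, with IL-6 and in EMT6 medium, and 0.12 and 0.41 for the interactions with IL-6 and EMT6 medium. From the catalytic genes alone it was -0.078 for IL-6 and -0.98 for EMT6 medium in Cysltr1-/-, -1.18 for the WT response to EMT6 medium, -0.075, -0.068 and 0.12 for the genotype in those cultures and 0.20 for the interaction with EMT6 medium.

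Directions turned for EMT6 medium in WT under library sizes, genes of at least 5 CPM and subtraction for Nfe2l1 (0.39, 0.29, 0.15), Nfe2l2 (0.43, 0.34, 0.20), Psmb5 (0.27, 0.18, 0.035), Psme2 (0.41, 0.32, 0.18) and Sem1 (0.25, 0.15, 0.010), and under the first 2 for Psmb7 (0.20, 0.10). In Cysltr1-/- library sizes turned Psmb7 (0.025), Psmb9 (0.29) and Psme2 (0.21), library sizes and genes of at least 5 CPM turned Nfe2l2 (0.32, 0.036), both and subtraction turned Irf8 (0.41, 0.13, 0.081) and Sem1 (0.54, 0.26, 0.23), genes of at least 5 CPM turned Psmb9 (0.0056), and DESeq2 size factors, DESeq2 and no filter turned Psmd13 (-0.13 each) and Irf1 (-0.071, -0.071, -0.081). Scaling to the constitutive subunits turned Psmb10 (0.012) and Psme1 (0.018) for IL-6 in WT, Psmb9 (0.14) and Psme2 (0.065) for EMT6 medium in Cysltr1-/- and Psme2 (0.16) in WT.

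With single libraries left out the counts ran from 9 to 13 for IL-6 in Cysltr1-/- and 20 to 31 in WT, 46 to 46 and 38 to 44 for EMT6 medium, 16 to 20, 9 to 13 and 32 to 42 for the genotype under GM-CSF, with IL-6 and in EMT6 medium, and 2 to 7 and 28 to 40 for the interactions with IL-6 and EMT6 medium. The full fit lay outside these ranges for IL-6 (16) and EMT6 medium (43) in Cysltr1-/- cultures. It also did so for the genotype under GM-CSF (22) and with IL-6 (14), and the reason was not tested. The inducible minus constitutive difference ran from -0.02 to -0.01 and -0.08 to -0.01 for IL-6, -0.55 to -0.54 and -0.61 to -0.54 for EMT6 medium, -0.01 to 0.06, 0.05 to 0.07 and 0.04 to 0.07 for the genotype, and -0.0011 to 0.064 and -0.0015 to 0.063 for the interactions with IL-6 and EMT6 medium. Psmd13 ran from -0.12 to -0.043 and Irf1 from -0.059 to 0.016 for EMT6 medium in Cysltr1-/-, and Irf1 was lowest at -0.0065 in WT, without the third GM-CSF library. For both genes the full-fit value in Cysltr1-/- cultures lay above its range.

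Taken over all groups, libraries of the same number did not deviate together (correlations of -0.34 to 0.30 over 45 pairs, median 0.04, against -0.26 to 0.37 for 90 other pairs). These pairs include pairs between the genotypes, so the check cannot exclude shared pools within a genotype. In WT cultures the same-number correlations with GM-CSF alone were 0.11, 0.06 and 0.30 for IL-6. For EMT6 medium they were 0.02, -0.34 and -0.24. With a replicate block the counts were 28 and 16 for IL-6 and 39 and 43 for EMT6 medium in WT and Cysltr1-/-, 22, 14 and 31 for the genotype and 5 and 30 for the interactions. Depth was lowest in EMT6 medium, and small changes of Psmg1 to Psmg4, the least counted members, are the least certain.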
